A study of Mus musculus with 12 samples.

Results

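Cadherins are cell-surface proteins that hold neighbouring cells together through calcium-dependent binding of their extracellular domains. The genes described here are those whose symbol is Cdh or Pcdh followed by a number, with the X-linked Pcdh11x, taken from probe sets that the platform annotation ties to a single gene. This gave 33 genes read by 72 probe sets, out of 18193 genes measured. They comprised 16 classical cadherins, 12 non-clustered protocadherins and 5 other cadherins.

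The arrays were made from mouse embryonic stem (ES) cells differentiated as a monolayer in N2B27, a serum-free medium that favours neural fate. The rtTA-Dmrt5 line carries a Dmrt5 gene that doxycycline (Dox) is meant to switch on through the rtTA transactivator, and the parental rtTA line carries the transactivator without that gene. Dmrt5, listed as Dmrta2, encodes a DNA-binding factor of early cortical and midbrain progenitors. Dox was given or withheld from day 5, and 6 groups of 2 arrays each resulted. Parental cells were harvested at day 7, and rtTA-Dmrt5 cells at day 7 or day 9, each either untreated or treated. Day 9 was thus not measured in the parental line. The labels do not say whether a line is a single clone or whether replicates came from separate cultures, so the p-values may measure technical spread.

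Classical cadherins bind catenins through their cytoplasmic tail and so connect the junction to actin. Type I members such as Cdh1 (E-cadherin) and Cdh2 (N-cadherin) mediate strong adhesion, and the exchange of E-cadherin for N-cadherin accompanies formation of the neural plate, while type II members mark subdivisions of the nervous system. Non-clustered protocadherins have other cytoplasmic tails and adhere more weakly; the delta-1 and delta-2 groups are known mainly from the brain, where several delta-2 members recruit the WAVE complex that regulates actin.

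The values are log2 signals that the authors centred on the median of each probe set over the 12 arrays, so they compare arrays but give no order of levels between genes. The brightness band of each probe set, read from the rounding of the deposited numbers, put 6 of the 33 genes at a log2 level of at least 8 (Cdh1, Cdh2, Cdh3, Cdh7, Cdh11 and Pcdh8), 14 between 4 and 8, 11 between 2 and 4, and 2 under 2 (Cdh18 and Cdh19). The probe sets of the last 2 bands are dim, and a change there can be understated. RNA came from whole cultures, so fewer cells expressing a gene and less RNA per cell cannot be told apart.

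The Dmrta2 probe set did not follow the labels. It read 1.91 and 1.85 in rtTA-Dmrt5 arrays without Dox at day 7 against -0.15 and -0.95 with Dox, and 1.07 and 1.16 without Dox at day 9 against -1.07 and -1.92 with Dox. The log2 change was -2.42 at day 7 (limma adjusted p = 0.00198) and -2.61 at day 9 (limma adjusted p = 0.000495), and in the parental line it was 0.10. Without Dox at day 7 the probe set read 1.92 higher in rtTA-Dmrt5 than in rtTA (limma adjusted p = 0.00222). The parental arrays, with and without Dox, read -0.28 to 0.41. Whether this probe set reads the introduced gene is not stated in the labels. All Dox directions below therefore rest on the arrays labelled +Dox and -Dox. Of 8 neural progenitor markers, Sox1, Sox2, Pax6 and Nes among them, 8 had a probe set at a log2 level of at least 8. So did 9 of 11 neuron, 6 of 11 simple epithelium, 5 of 8 neural crest and 3 of 9 ES cell markers. The count was 2 of 9 for mesoderm and endoderm, 2 of 10 for mesenchyme and 0 of 8 for endothelium. Levels of different probe sets are not compared.

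The 250 bases before the annotated start of 4 genes are shown because these genes gave the largest decreases with Dox at day 7. They are taken from RefSeq (mouse, GRCm38.p6) and written 5′ to 3′ on the gene's strand, with matches to the searched motifs in capitals. Cdh7 has 3 annotated starts, of which the most upstream is shown.
Cdh7, chr1:109982650-109982899, plus strand: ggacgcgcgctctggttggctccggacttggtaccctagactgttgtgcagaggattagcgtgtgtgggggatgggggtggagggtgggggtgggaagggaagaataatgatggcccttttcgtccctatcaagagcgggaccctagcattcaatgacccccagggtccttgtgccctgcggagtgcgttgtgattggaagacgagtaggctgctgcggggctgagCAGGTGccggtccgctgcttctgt
Cdh8, chr8:99416472-99416721, minus strand: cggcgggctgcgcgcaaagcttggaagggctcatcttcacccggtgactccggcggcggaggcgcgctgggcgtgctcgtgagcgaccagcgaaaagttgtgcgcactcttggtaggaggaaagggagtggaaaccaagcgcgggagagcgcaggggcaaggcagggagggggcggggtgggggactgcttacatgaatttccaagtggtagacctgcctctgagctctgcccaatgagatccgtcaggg
Pcdh8, chr14:79771313-79771562, minus strand: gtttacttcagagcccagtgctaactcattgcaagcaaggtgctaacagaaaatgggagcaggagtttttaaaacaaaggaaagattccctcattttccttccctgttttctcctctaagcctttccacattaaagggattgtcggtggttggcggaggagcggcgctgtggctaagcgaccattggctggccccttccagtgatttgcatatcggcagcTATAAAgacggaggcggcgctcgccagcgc
Pcdh17, chr14:84443313-84443562, plus strand: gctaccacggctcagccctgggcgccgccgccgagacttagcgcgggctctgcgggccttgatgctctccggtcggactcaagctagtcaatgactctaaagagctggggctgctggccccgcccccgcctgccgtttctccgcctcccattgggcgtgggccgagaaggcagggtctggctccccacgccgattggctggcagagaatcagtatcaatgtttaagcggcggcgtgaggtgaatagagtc

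The searched motifs, on both strands, began with ACAATGT, the core bound by Dmrt proteins. The second, CACCTG, is an E-box bound by Snail and Zeb repressors. TAATTA is bound by many homeodomain proteins. TATAAA is a TATA box. Of 23 windows for 20 of the 33 genes, 0 held ACAATGT, against 2.56% of all 32851 windows of the same length. CACCTG lay in windows of Cdh7 and Pcdh15 (17.2% of all windows), TATAAA in those of Pcdh8 and Pcdh15 (12.4%), and TAATTA in 1 downstream window of Cdh7 (4.84%). In the sequences above, the capitals of Cdh7 are the E-box on the opposite strand and those of Pcdh8 a TATA box close to the start. A match shows only that these letters are present. The member windows were rich in G and C, with a median of 58.4% against 52.4% of all windows, and held a median of 10 CG dinucleotides against 6.

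Across the 6 groups, the protocadherins stood lowest in rtTA-Dmrt5 cells given Dox and harvested at day 7. The median of the 12 protocadherin group means was -0.45 there and lay between -0.01 and 0.08 in the other 5 groups. The median of the 16 classical cadherins lay between -0.05 and 0.05 in all 6 groups. The delta-2 protocadherins (Pcdh8, Pcdh10, Pcdh17, Pcdh18 and Pcdh19) were at a median of -1.03 in rtTA-Dmrt5 cells with Dox at day 7, against 0.20 in the same line without Dox. Of the 33 genes, 12 had their lowest group mean in that group, 6 of them protocadherins, and 0 had their highest there. The same count was not made over all genes, so its usual size is not known.

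**Figure D1:**
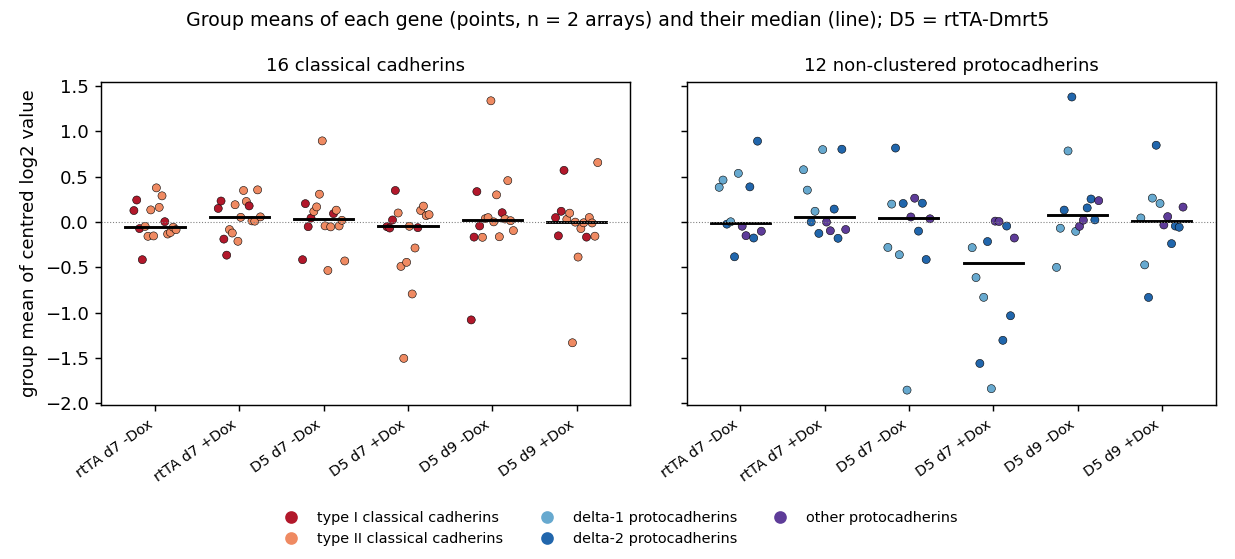
Group means of the centred log2 value (vertical axis) for each of the 16 classical cadherins (left) and 12 non-clustered protocadherins (right) in the 6 groups (horizontal axis), with points for genes, colours for subclasses and a line at the median. The protocadherin median lies at -0.45 in rtTA-Dmrt5 cells with Dox at day 7, while the classical median stays between -0.05 and 0.05.

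The protocadherins also spread more widely over the groups. The range of group means, highest minus lowest, had a median of 1.35 on the log2 scale among the 12 protocadherins. That range reached 2.65 for Pcdh11x, as read by its brighter probe set. Among the 16 classical cadherins the median range was 0.61 and the widest was 1.81, that of Cdh7. The 5 other cadherins (Cdh13, Cdh16, Cdh17, Cdh23 and Cdh26) ranged over 0.24 to 0.52. These are descriptions of the genes on the array, and the classes were not tested against each other.

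Dox in rtTA-Dmrt5 cells at day 7, after 2 days of exposure, lowered 7 members and raised 2. The decreases were those of Pcdh8, Cdh7, Cdh8, Pcdh17, Pcdh7, Cdh6 and Pcdh19, and the increases those of Cdh22 and Cdh1. Of all genes tested, 3.85% fell and 3.08% rose in the same comparison (limma, adjusted p under 0.05). The median change was -0.21 over the 33 members, -0.01 over the classical cadherins and -0.34 over the protocadherins, against 0.01 over all genes. Among protocadherins 4 of 12 fell and 0 rose, and 11 of 12 values were below 0, against 8605 of 18193 over all genes. Among classical cadherins 3 of 16 fell and 2 rose. For the delta-2 group 3 of 5 fell and 5 of 5 values were below 0, with a median of -0.62.

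At day 9, after 4 days of Dox, 5 members were lower and 3 higher, against 11.3% of all genes lower and 16.9% higher. Cdh7, Cdh8, Cdh19, Pcdh7 and Pcdh8 fell, and Cdh1, Cdh4 and Cdh22 rose. The median change was -0.22 over the members, -0.08 over the classical cadherins and -0.19 over the protocadherins, against 0.01 over all genes. Of the protocadherin values 8 of 12 were below 0, against 8851 of 18193 over all genes. Of the 11 members called on either day, 6 were called on both: Cdh1, Cdh7, Cdh8, Cdh22, Pcdh7 and Pcdh8. This overlap was not counted over all genes, so its usual size is not known. The day 9 arrays with Dox also read lower on 9 hybridisation control probe sets, with means of -0.79 and -0.67 against 0.01 and 0.17 without Dox. Their Actb 3′ minus 5′ difference was 0.23 and 0.20, against 0.01 and -0.05. On the same hybridisation controls, the day 7 arrays of rtTA-Dmrt5 read -0.36 and -0.02 with Dox against 0.11 and 0.20 without. The parental arrays read -0.05 and -0.25 with Dox against 0.20 and 0.07 without. The part of these array differences in the day 7 and day 9 results was not tested.

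**Figure D2:**
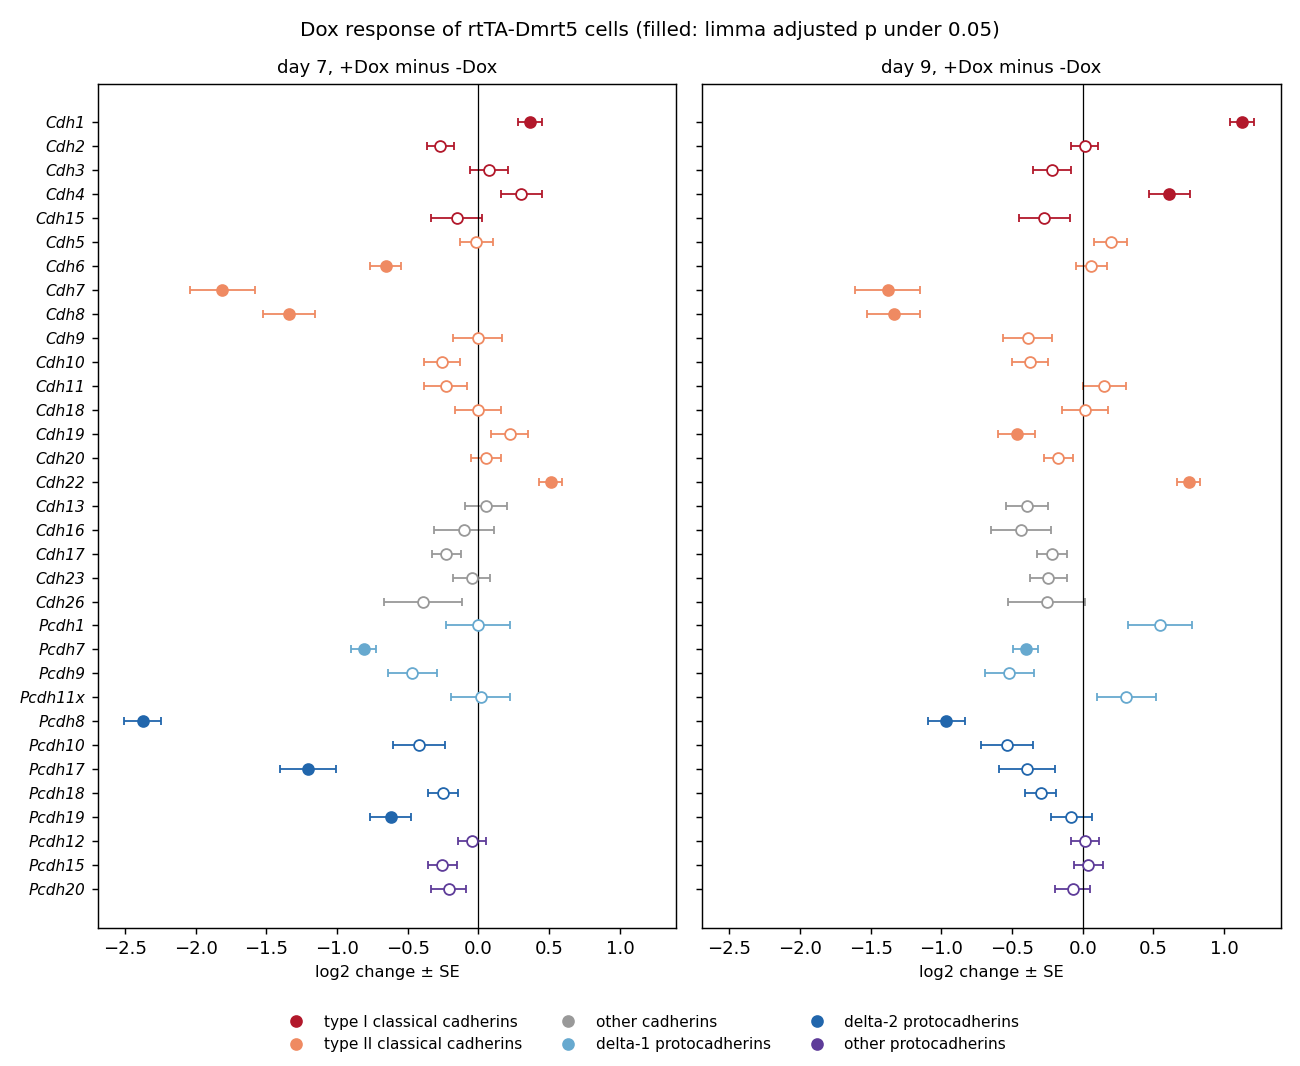
Log2 change with Dox ± SE (horizontal axis) of the 33 genes (vertical axis) in rtTA-Dmrt5 cells at day 7 (left) and day 9 (right), coloured by subclass, with filled points for limma adjusted p under 0.05. Pcdh8 lies farthest left at day 7 (-2.38) and Cdh1 farthest right at day 9 (1.13).

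In the parental line at day 7 Dox changed 0 of 33 members (limma, adjusted p under 0.05), against 0.0% of all genes. Without adjustment, 929 of 18193 genes and 1 member had p under 0.05. That member was Cdh20, a type II cadherin with a change of 0.41 ± 0.10 (SE). The test of the difference between the lines in the day 7 response called 5 members lower in rtTA-Dmrt5, namely Pcdh8, Cdh7, Cdh8, Pcdh7 and Cdh6, and 0 higher. Over all genes, 1.98% were called lower and 0.857% higher. When each of the 12 arrays was left out in turn, Pcdh8 kept this call in 12 of 12 fits (change -2.60 to -2.20), Cdh7 in 8 (-2.21 to -1.53), Pcdh7 in 5 (-0.76 to -0.63), Cdh8 in 4 (-1.57 to -0.99) and Cdh6 in 3 (-0.80 to -0.58). The number of members called fell to 1 without replicate 2 of rtTA -Dox, replicate 1 of rtTA-Dmrt5 day 7 -Dox or replicate 2 of rtTA-Dmrt5 day 7 +Dox. Cdh7 lost its call without each of these and without replicate 1 of rtTA -Dox. The number fell to 2 without replicate 1 of rtTA -Dox, replicate 2 of rtTA-Dmrt5 day 7 -Dox or replicate 1 of rtTA-Dmrt5 day 7 +Dox.

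Pcdh8, a delta-2 protocadherin known from the presomitic mesoderm and from synapses, had the largest day 7 change. It read 0.78 and 0.85 in rtTA-Dmrt5 cells without Dox at day 7 and -1.36 and -1.76 with Dox. The day 9 values were 0.20 and 0.07 without Dox and -0.83 and -0.83 with Dox, and the 4 parental arrays lay between -0.13 and 0.08. The groups with and without Dox did not overlap on either day in rtTA-Dmrt5 cells, and at day 7 the parental arrays lay between them. The change was -2.38 ± 0.13 (SE, limma adjusted p = 1.46e-05), a 5.19-fold decrease, at day 7 and -0.96 ± 0.13 (limma adjusted p = 0.0007), a 1.95-fold decrease, at day 9. The 2 days differed by 1.41 ± 0.18 (limma adjusted p = 0.00796). The value comes from a probe set whose type may also read related transcripts, and the second Pcdh8 probe set, in the band from 4 to 8, gave -2.94 at day 7.

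Pcdh17, a delta-2 protocadherin that clusters synaptic vesicles and marks corticobasal circuits, fell at day 7. The arrays without Dox read -0.04 and -0.17 and those with Dox -1.08 and -1.54, and the parental arrays 0.07 to 0.44. The day 7 Dox arrays were the lowest of the 12 and did not overlap those without Dox. The change was -1.20 ± 0.20 (SE, limma adjusted p = 0.00544), a 2.31-fold decrease, and the call was lost without replicate 2 of the Dox arrays, where the change was -0.97. At day 9 the arrays read 0.20 and 0.11 without Dox and 0.06 and -0.54 with Dox. The day 9 change of -0.39 did not pass (limma adjusted p = 0.167).

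Pcdh19, the X-linked delta-2 protocadherin whose loss causes an epilepsy, was high in the parental line. Its 4 parental arrays read 0.56 to 1.04, and the rtTA-Dmrt5 arrays at day 7 read -0.47 and -0.36 without Dox and -1.05 and -1.01 with Dox. At day 9 it read -0.03 and 0.08 without Dox and 0.00 and -0.12 with Dox. The Dox groups were apart at day 7 and overlapped at day 9. The day 7 change was -0.62 ± 0.14 (SE, limma adjusted p = 0.0325), and the call was lost when any of the 4 day 7 arrays of the line was left out (-0.68, -0.56, -0.60 and -0.64).

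Pcdh10, a delta-2 protocadherin that guides axons and recruits the WAVE complex, followed the day of harvest. It read -0.02 and 0.42 without Dox and -0.17 and -0.26 with Dox at day 7. At day 9 it read 1.23 and 1.52 without Dox and 1.01 and 0.68 with Dox, and the parental arrays lay between -0.51 and 0.02. Both day 9 groups lay above the other 8 arrays. The Dox change was -0.42 at day 7 (limma adjusted p = 0.231) and -0.53 at day 9 (limma adjusted p = 0.0553), so neither passed. Of 6 Pcdh10 probe sets, only that in the band from 4 to 8 was used. The dimmer ones gave -0.625 to -0.067 at day 7. At day 9 they disagreed, from -0.69 to 0.24, and the lowest passed on its own (limma adjusted p = 0.015). The day 9 change passed in 3 of 20 alternative settings. Among these were the fits without replicate 1 or replicate 2 of rtTA-Dmrt5 day 7 -Dox, at the same size of -0.53. The fifth delta-2 member, Pcdh18, had changes of -0.25 and -0.30 that did not pass.

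Among delta-1 protocadherins, Pcdh7, which acts in axon growth and in adhesion of ectoderm, fell on both days. The arrays without Dox read 0.17 and 0.22 at day 7 and -0.08 and -0.06 at day 9. Those with Dox read -0.61 and -0.62 at day 7 and -0.39 and -0.55 at day 9, and the parental arrays read 0.28 to 0.48. The 4 Dox arrays of rtTA-Dmrt5 were the lowest of the 12. The change was -0.81 ± 0.09 (SE, limma adjusted p = 0.00055) at day 7 and -0.40 ± 0.09 (limma adjusted p = 0.00793) at day 9. The day 9 call was lost when only the arrays compared were fitted, at the same size. The 3 probe sets behind the value, in the dim band from 2 to 4, gave -1.22 to -0.29 at day 7. Pcdh9, Pcdh1 and Pcdh11x, the other delta-1 members, and Pcdh12, Pcdh15 and Pcdh20 did not pass with Dox on either day.

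Cdh7, a type II cadherin of the developing nervous system and neural crest, fell on both days. It read 0.48 and 0.14 without Dox at day 7 and -1.30 and -1.71 with Dox. Its day 9 values were -0.13 and 0.23 without Dox and -1.43 and -1.24 with Dox, and the parental arrays lay between -0.15 and 0.53. The 4 Dox arrays of rtTA-Dmrt5 lay more than a log2 unit below the other 8. The change was -1.81 ± 0.23 (SE, limma adjusted p = 0.00136), a 3.51-fold decrease, at day 7 and -1.38 ± 0.23 (limma adjusted p = 0.0021), a 2.60-fold decrease, at day 9. Both dim Cdh7 probe sets gave smaller decreases at day 7, -0.85 and -0.84. At day 9 they gave -0.33 and -0.20, and neither passed on its own. With the mean of all 3 probe sets the change was -1.17 at day 7 and -0.64 at day 9, and both calls were kept.

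Cdh8, a type II cadherin of cortical and thalamic circuits, was highest in rtTA-Dmrt5 cells without Dox. It read 0.89 and 0.90 at day 7 and 1.24 and 1.43 at day 9 without Dox. With Dox it read -0.41 and -0.48 at day 7 and 0.05 and -0.05 at day 9, and the parental arrays read -0.45 to 0.14. The Dox arrays lay in or near the parental range, and the 4 arrays without Dox lay above them. The change was -1.34 ± 0.19 (SE, limma adjusted p = 0.00214) at day 7 and -1.34 ± 0.19 (limma adjusted p = 0.000796) at day 9, a 2.53-fold decrease on both days.

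Cdh6, a type II cadherin of kidney and early neural tissue, was lower with Dox at day 7. It read 0.15 and 0.18 without Dox and -0.56 and -0.42 with Dox at day 7. The day 9 readings were -0.01 and 0.08 without Dox and 0.21 and -0.02 with Dox, and the parental arrays lay between -0.23 and -0.01. The day 7 Dox arrays were the lowest of the 12, and the day 9 groups overlapped. The day 7 change was -0.66 ± 0.11 (SE, limma adjusted p = 0.00636), the day 9 change was 0.06, and the days differed by 0.72 ± 0.16 (limma adjusted p = 0.0484). Its 2 probe sets were unequal, -1.11 and -0.20 at day 7, and the day 7 call was lost without replicate 2 of the -Dox arrays (-0.64) or replicate 1 of the +Dox arrays (-0.59). The difference between days kept its call in 3 of 12 fits that left out an array (0.60 to 0.83).

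Cdh22, a type II cadherin of the brain and pituitary, was higher with Dox on both days. At day 7 it read -0.45 and -0.41 without Dox and 0.08 and 0.09 with Dox. On day 9 the values were -0.06 and -0.13 without Dox and 0.64 and 0.67 with Dox, and the parental arrays read -0.15 to 0.09. The day 9 Dox arrays were the highest of the 12, and the day 7 arrays without Dox were the lowest. The change was 0.51 ± 0.08 (SE, limma adjusted p = 0.00544) at day 7 and 0.75 ± 0.08 (limma adjusted p = 0.000252) at day 9. The day 7 call was lost without replicate 1 of the -Dox arrays (0.49) or replicate 2 of the +Dox arrays (0.51). Cdh19, a cadherin of Schwann cell precursors on a probe set under a log2 level of 2, fell at day 9 (-0.47 ± 0.13, limma adjusted p = 0.0268); the call was lost without replicate 1 of day 9 -Dox (-0.30), replicate 1 of day 9 +Dox (-0.46) or replicate 2 of day 9 +Dox (-0.48), and with array weights or only the arrays compared (-0.47 in both).

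Cdh11, the cadherin of mesenchyme and osteoblasts, did not pass with Dox. It read -0.10 and -0.01 without Dox and -0.17 and -0.41 with Dox at day 7, and -0.34 and 0.01 without Dox and -0.03 and 0.02 with Dox at day 9. The parental arrays read 0.06 to 0.39 and lay above the other 8. The changes of -0.23 (95% interval -0.57 to 0.10) and 0.15 (-0.18 to 0.49) leave room for changes of either sign. The other type II cadherins not called with Dox were Cdh5 (VE-cadherin of endothelium), Cdh9, Cdh10, Cdh18 and Cdh20.

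**Figure D3:**
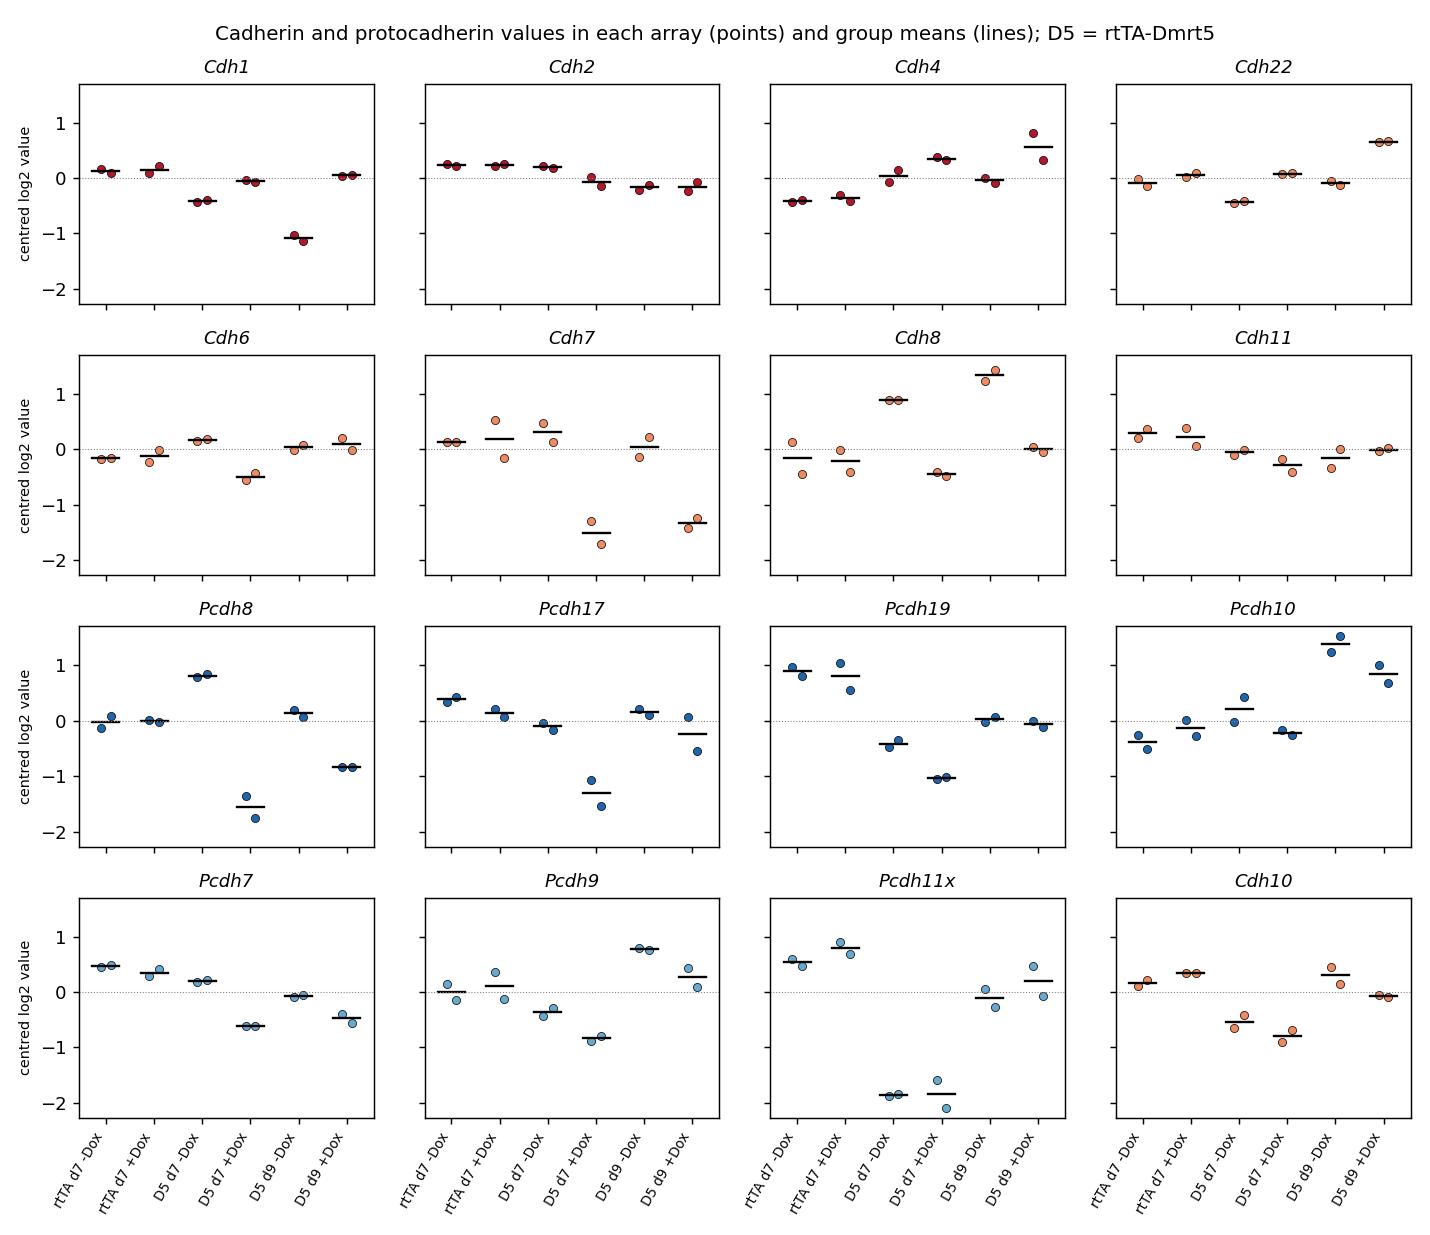
Centred log2 values (vertical axis) of 16 members in each of the 12 arrays by group (horizontal axis), with points for arrays, colours for subclasses and lines at group means. Cdh7 and Pcdh8 are low in the rtTA-Dmrt5 Dox arrays on both days, Cdh1 is lowest without Dox at day 9 (-1.03 and -1.13), and Pcdh11x is lowest in the rtTA-Dmrt5 arrays of day 7 (-2.09 to -1.58).

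Cdh1, the cadherin of epithelia and undifferentiated ES cells, was lowest in rtTA-Dmrt5 cells without Dox. It read -0.44 and -0.40 without Dox and -0.03 and -0.07 with Dox at day 7. Its day 9 readings were -1.03 and -1.13 without Dox and 0.03 and 0.06 with Dox, and the parental arrays read 0.08 to 0.21. The groups with and without Dox did not overlap on either day, and the Dox arrays lay just below the parental range. The change was 0.36 ± 0.09 (SE, limma adjusted p = 0.0321) at day 7 and 1.13 ± 0.09 (limma adjusted p = 3.25e-05), a 2.19-fold increase, at day 9. The 2 days differed by 0.76 ± 0.12 (limma adjusted p = 0.0149), and that call held in 7 of 12 fits that left out an array (0.72 to 0.81). The day 7 call was lost when any of the 4 day 7 arrays of the line was left out (0.34 to 0.38), and also with a replicate block or when only the arrays compared were fitted, both at 0.36.

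Cdh2, the cadherin of the neural plate and neural tube, did not pass with Dox. At day 7 it read 0.22 and 0.18 without Dox and 0.01 and -0.15 with Dox. At day 9 it read -0.21 and -0.12 without Dox and -0.24 and -0.07 with Dox, and the parental arrays read 0.22 to 0.26. The change was -0.27 at day 7 (95% interval -0.48 to -0.06, limma adjusted p = 0.135) and 0.01 at day 9 (-0.20 to 0.22), where its 2 probe sets went opposite ways (-0.19 and 0.22). The day 7 change passed when the values were quantile normalized again (-0.34) or when only genes of a log2 level of at least 8 were tested (-0.27).

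Cdh1 minus Cdh2, each on its centred scale, followed Cdh1. The difference was -0.66 and -0.58 without Dox against -0.05 and 0.08 with Dox at day 7. At day 9 it was -0.82 and -1.0 without Dox against 0.27 and 0.13 with Dox, and in the parental arrays -0.14 to -0.03. Cdh4 (R-cadherin, of retina and brain) was the other type I gene called: it read 0.00 and -0.09 without Dox and 0.81 and 0.33 with Dox at day 9, a change of 0.61 ± 0.14 (SE, limma adjusted p = 0.0113). That call was lost without replicate 2 of the day 9 -Dox arrays (0.57) or replicate 1 of the day 9 +Dox arrays (0.38), and when only the arrays compared were fitted (0.61). Cdh3 (P-cadherin) and Cdh15 (M-cadherin, of muscle) did not pass with Dox.

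Markers of other cells moved with the same arrays. Over all genes, 3.08% rose and 3.85% fell at day 7, and 16.9% rose and 11.3% fell at day 9. Of 11 simple epithelium markers 5 rose and 0 fell at day 7 and 7 rose and 0 fell at day 9; their mean per array was -0.43 to -0.24 without Dox and 0.49 to 0.70 with Dox at day 9. Of 9 markers of undifferentiated ES cells 5 rose at day 7 and 7 at day 9, with day 9 means of -0.25 to -0.17 against 0.32 to 0.44. Of 9 mesoderm and endoderm markers 1 rose at day 7 and 6 at day 9, among them Gata6 (1.34) and Gata4 (1.21), with 2 of the 9 at a log2 level of at least 8 and day 9 means of -0.07 in both arrays without Dox against 0.51 to 0.72 with Dox. The part of these cell types in the changes of Cdh1, Cdh4 and Cdh22 was not tested.

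The same shares of all genes, 3.85% lower and 3.08% higher at day 7 and 11.3% and 16.9% at day 9, apply here. Of 11 neuron markers, 8 fell and 0 rose at day 7, and 7 fell at day 9. Their array means were -0.21 to -0.20 without Dox against -1.02 to -0.84 with Dox at day 7, and 0.39 to 0.45 against -0.39 to -0.26 at day 9. Of 8 neural crest markers 3 fell at day 7, led by Pax3 (-1.74), and at day 9 4 fell and 2 rose, with array means of -0.12 to -0.11 without Dox against -0.48 to -0.46 with Dox at day 7 and 0.10 to 0.12 against -0.07 to -0.05 at day 9. Of 8 neural progenitor markers 4 fell and 2 rose at day 7, with means of 0.01 and 0.03 against -0.28 in both Dox arrays, and at day 9 2 fell and 1 rose (means of -0.17 and -0.09 against -0.27 in both). Of 10 mesenchyme markers 3 fell and 1 rose at day 7, led by Col3a1 (-2.79), with means of -0.04 and 0.12 against -0.39 and -0.33, and at day 9 3 rose and 1 fell (0.03 and 0.09 against 0.18 and 0.26). Of 8 endothelial markers only Tek was called, higher on both days (0.72 and 1.51), and 6 of the 8 lay under a log2 level of 4. The part of these cell types in the decreases of Pcdh8, Pcdh17, Pcdh7, Pcdh19, Cdh6, Cdh7 and Cdh8 was not tested.

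Among genes of proteins that work with cadherins, some calls were higher and some lower. For comparison, 3.08% of all genes rose and 3.85% fell at day 7, and 16.9% rose and 11.3% fell at day 9. Of 13 catenins and junction adaptors, 1 rose and 1 fell at day 7 and 2 rose and 3 fell at day 9. Ctnna2, the alpha-catenin of neurons, fell on both days (-0.97 and -0.96), while Ctnnb1, the beta-catenin gene, had changes of -0.01 and 0.00 that did not pass. Of 11 genes of the WAVE complex and other protocadherin partners, 2 fell at day 7, Cyfip2 (-0.56) and Dab1 (-0.57), and at day 9 3 rose and 2 fell. Of 11 genes whose proteins cleave or mature cadherins, 1 rose at day 7 and 3 at day 9, Pcsk5, Pcsk6 and Mmp14.

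The lists below stand against 3.08% of all genes higher and 3.85% lower at day 7, and 16.9% and 11.3% at day 9. Of 9 repressors of E-cadherin transcription, 1 rose and 2 fell at day 7, and 3 rose at day 9: Tbx3 (1.57), Snai1 (1.18) and Snai2 (0.91). These are known as repressors of Cdh1, which rose in the same comparison. The part of these repressors in the change of Cdh1 was not tested. The 2 that fell at day 7 were Zeb2 (-0.56) and Twist1 (-0.53), the latter also a mesenchyme marker. In the 17 large and other members of the superfamily, 1 rose and 3 fell at day 7, with Fat4, a planar polarity cadherin, at -1.84 and Clstn2, a synaptic calsyntenin, at 1.22. At day 9 2 rose, Celsr1 (1.22) and Clstn2 (0.76), and 3 fell, Fat4 (-0.94), Celsr3 (-0.60) and Clstn3 (-0.54). Of 6 desmosomal cadherins Dsc2 rose on both days (0.95 and 1.54) and Dsg2 at day 9 (1.02). Of 5 nectins and relatives, Nectin3 fell on both days (-1.06 and -0.46) and Pvr rose at day 9 (0.95).

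The clustered protocadherins, which give neurons a surface identity, were represented by Pcdhb genes and Pcdhgc4 alone, with no alpha gene. These genes had 3 calls with Dox. Of 23 measured genes 1 rose at day 7 (Pcdhgc4, 0.76), against 3.08% of all genes. At day 9, 2 fell, against 11.3% of all genes. The median changes at day 7 and day 9 were -0.10 and -0.11. Near-identical members of this cluster can share probes, so single genes there are uncertain. Without Dox, 6 rose and 0 fell from day 7 to day 9, against 7.88% of all genes higher and 7.11% lower.

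From day 7 to day 9 without Dox, 7 members rose and 3 fell in rtTA-Dmrt5 cells, against 7.88% of all genes higher and 7.11% lower (limma, adjusted p under 0.05). Pcdh11x (1.75 ± 0.21, SE), Pcdh10 (1.17 ± 0.18), Pcdh9 (1.14 ± 0.17) and Cdh10 (0.83 ± 0.13) rose and kept the call in 12 of 12 fits that left out an array. The second, dimmer Pcdh11x probe set gave 0.37 and did not pass on its own. The dimmer Pcdh10 probe sets, which were not used, gave 0.02 to 1.12. Pcdh9 read -0.44 and -0.29 at day 7 and 0.80 and 0.76 at day 9, and Cdh10 read -0.66 and -0.41 at day 7 and 0.45 and 0.15 at day 9. In both genes the 2 days did not overlap. Cdh13 (T-cadherin, held in the membrane by a lipid anchor), Cdh19 and Cdh22 rose by smaller amounts (0.52, 0.50 and 0.34), and Cdh1 (-0.66), Pcdh8 (-0.68) and Cdh2 (-0.37) fell. Of these 6, Cdh1 kept its call in 12 of 12 such fits. Pcdh8 kept it in 10 (-0.75 to -0.62) and lost it without replicate 2 of either day. Cdh19 kept it in 9 (0.33 to 0.67) and lost it without either day 7 array or replicate 1 of day 9. Cdh2 and Cdh22 kept it in 8 (-0.41 to -0.33 and 0.30 to 0.37) and lost it without any of the 4 arrays compared. Cdh13 kept it in 2 (0.46 to 0.58), those without a day 9 Dox array. Over the same interval 8 of 11 neuron markers rose and 0 fell, with array means of -0.21 to -0.20 at day 7 and 0.39 to 0.45 at day 9, and 8 of 9 ES cell markers rose; their part in these changes was not tested. This comparison uses the day 7 and day 9 arrays without Dox that also serve the Dox responses.

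**Figure D4:**
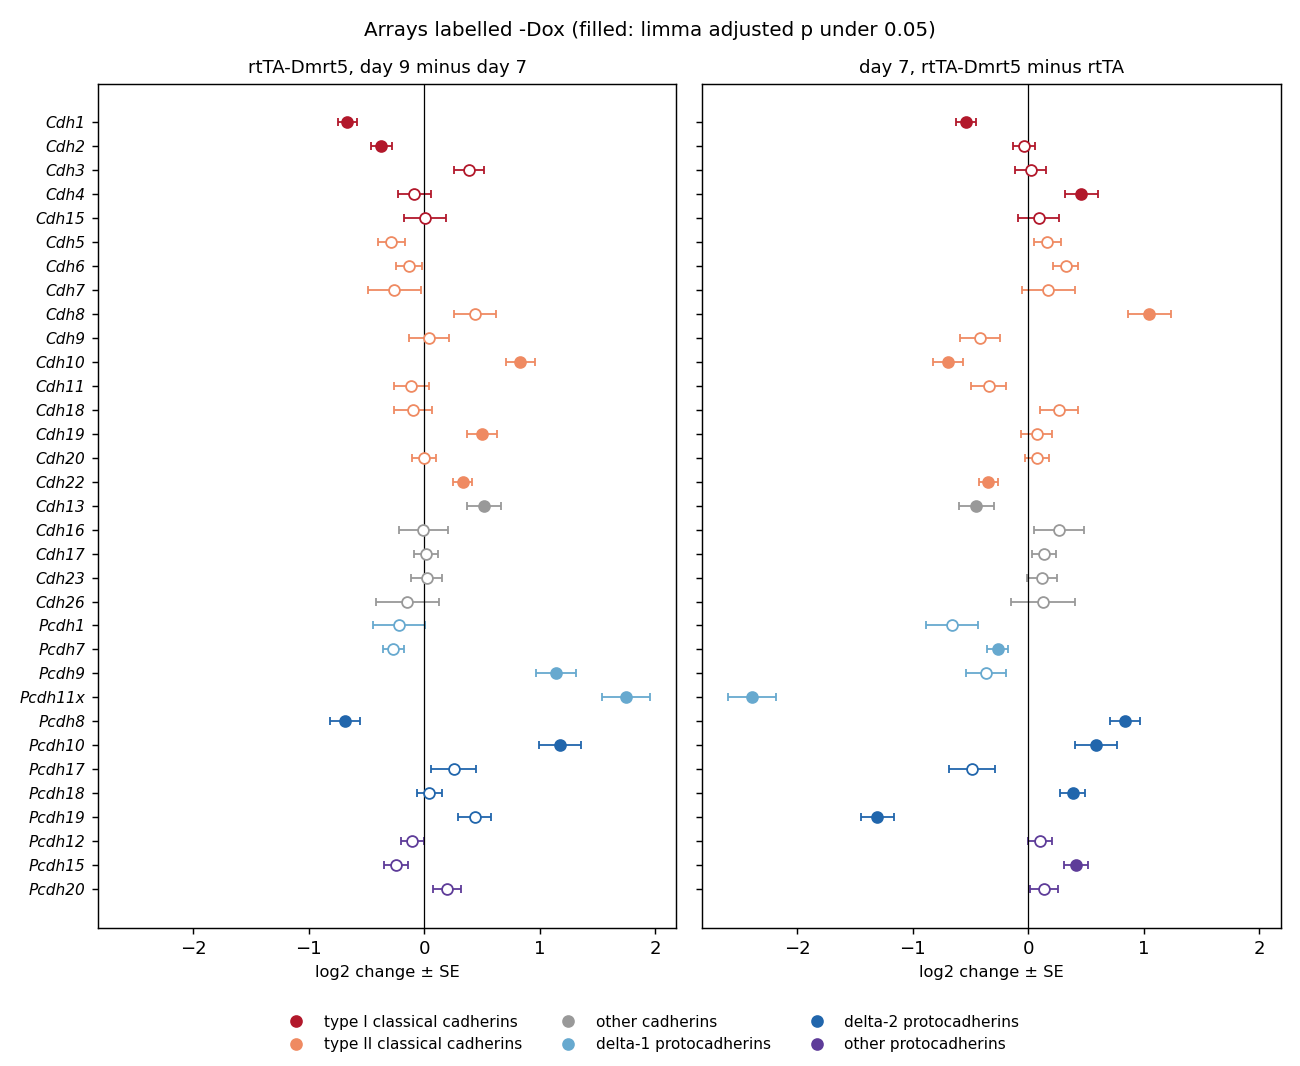
Log2 difference ± SE (horizontal axis) of the 33 genes (vertical axis) in arrays without Dox, day 9 minus day 7 of rtTA-Dmrt5 (left) and rtTA-Dmrt5 minus rtTA at day 7 (right), coloured by subclass, with filled points for limma adjusted p under 0.05. Pcdh11x is at 1.75 on the left and at -2.39 on the right.

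Without Dox at day 7 the lines already differed in 13 members, 6 higher and 7 lower in rtTA-Dmrt5, against 15.2% of all genes higher and 13.4% lower. Pcdh11x, an X-linked protocadherin, read 0.60 and 0.47 in rtTA and -1.88 and -1.83 in rtTA-Dmrt5, a difference of -2.39 ± 0.21 (SE, limma adjusted p = 4.46e-05) or 5.24-fold. The second Pcdh11x probe set, in the dim band from 2 to 4, gave a smaller difference of -0.69. Pcdh19, also X-linked, differed by -1.31 ± 0.14 (limma adjusted p = 0.000199). The lines also differed in the Actb 3′ minus 5′ reading, -0.36 and -0.28 in rtTA against 0.06 and 0.05 in rtTA-Dmrt5, and the part of this in the line differences was not tested. The 618 X-linked genes measured, a list added after these values were seen, had a median of -0.01 against 0.02 over all genes, with 81 higher and 98 lower. Cdh10 (-0.70), Cdh1 (-0.54), Cdh13 (-0.45), Cdh22 (-0.34) and Pcdh7 (-0.27) were also lower.

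Higher in rtTA-Dmrt5 without Dox were Cdh8 (1.05), Pcdh8 (0.84), Pcdh10 (0.59), Cdh4 (0.46), Pcdh15 (0.41) and Pcdh18 (0.38). Pcdh15 forms the tip link of inner ear hair cells with Cdh23, which did not pass. The calls of Cdh1, Cdh8, Cdh10, Pcdh8, Pcdh11x and Pcdh19 were kept in 12 of 12 fits that left out an array. Pcdh15 kept its call in 10 fits (0.32 to 0.51), losing it without replicate 2 of either line. Cdh22 kept it in 9 (-0.41 to -0.28), losing it without replicate 1 of rtTA or either rtTA-Dmrt5 array, and Pcdh18 in 8 (0.34 to 0.43), losing it without any of the 4 arrays compared. Pcdh10 kept it in 7 (0.37 to 0.81), losing it without either rtTA array, replicate 2 of rtTA-Dmrt5 -Dox or either day 7 +Dox array of that line. Cdh4 (0.35 to 0.56) and Pcdh7 (-0.29 to -0.24) kept it in 4, those without an rtTA +Dox or a day 9 +Dox array, and Cdh13 (-0.50 to -0.39) in 2, those without a day 9 +Dox array. Markers of undifferentiated ES cells were lower in rtTA-Dmrt5, 8 of 9 called lower and 1 higher, with array means of -1.09 to -1.06 against 0.62 to 0.71 in rtTA, and their part in these differences was not tested. The line difference, the line-by-Dox difference and the day 7 Dox response share the same rtTA-Dmrt5 arrays without Dox, so the positions of Cdh8 and Pcdh8 in them are not independent.

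In the test of whether the Dox response differed between days, 3 members were called higher at day 9 (Pcdh8, Cdh1 and Cdh6) and 0 lower, against 1.43% and 0.995% of all genes. The Dox change of Cdh1 was above 0 and that of Pcdh8 below 0 on both days, while that of Cdh6 was called at day 7 and was 0.06 at day 9. Cdh1 lost the call in the 5 fits named next, and Cdh6 kept it in the 3 fits without an rtTA +Dox array or replicate 2 of day 9 +Dox. The count fell to 1 without any of the 4 day 7 arrays of the line or without replicate 2 of day 9 -Dox, and Pcdh8 kept its call in 12 of 12 fits (1.22 to 1.61). Of the 33 members, 14 were called in none of the 7 comparisons, and 10 of these lay under a log2 level of 4: Cdh5, Cdh9, Cdh16, Cdh17, Cdh18, Cdh20, Cdh23, Pcdh1, Pcdh12 and Pcdh20. The remaining 4 were Cdh3, Cdh11, Cdh15 and Cdh26. Genes called in none of the 7 comparisons were not counted over all genes, so the usual share is not known.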

How the data were processed

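Per the labels' protocols, total RNA was DNase-treated, amplified with a NuGEN Ovation kit and labelled with biotin. Per the submitters' processing notes, the authors used RMA, with no version stated. The deposited values are taken as log2, as RMA is defined on that scale; each probe set is centred on its median over 12 arrays. Of 45101 probe sets, 34945 had 1 gene symbol, 932 several, 9160 none, and 64 were controls. The level band was read from the float rounding of the values and checked on simulated data. Probe sets of a gene in its highest band were averaged. Group means were fitted with limma 3.58.1 (R 4.3.3; 7 contrasts, eBayes, Benjamini-Hochberg over 18193 genes, threshold 0.05). The fit was tested on simulated data. Array number limits precision. Named were Dmrta2, all members called with Dox, the 8 largest of them with each array's value, and Cdh1, Cdh2, Cdh11, Pcdh8, Pcdh10 and Pcdh19. Members and lists were chosen with earlier results of these data known. Replicate numbers did not pair arrays. Alternatives covered probe set choice, level filters, normalization, array weights, robust eBayes, a replicate block, the fold threshold, the arrays fitted and each array left out.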

Additional observations from a re-analysis of the deposited data

Results flagged for a closer look

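These results were picked out because a test of the difference between conditions passed (limma, adjusted p under 0.05). The day 7 Dox response was lower in rtTA-Dmrt5 than in rtTA for Pcdh8 (-2.40), Cdh7 (-1.87), Cdh8 (-1.28), Pcdh7 (-0.70) and Cdh6 (-0.69). The log2 Dox change was higher at day 9 than at day 7 for Pcdh8 (by 1.41), Cdh1 (by 0.76) and Cdh6 (by 0.72). For Pcdh8 this was a smaller decrease, -2.38 at day 7 and -0.96 at day 9. For Cdh6 the change was -0.66 at day 7 and 0.06 at day 9. For Cdh1 it was a larger increase, 0.36 at day 7 and 1.13 at day 9. Pcdh8 was called in both tests in 12 of 12 fits that left out an array. The other calls held in 3 to 8 of those 12 fits.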

How the results depend on the processing

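With Dox, the main counts of members called were 9 at day 7 and 8 at day 9. They were 5 for the difference between lines, 3 between days, 10 for day 9 against day 7 and 13 between lines without Dox. Testing genes of a log2 level of at least 8 left 4 at day 7, 3 at day 9, 2 between lines in the response, 4 between days without Dox and 2 between lines without Dox, since fewer members were tested. Requiring a 2-fold change left 4, 3, 3 between lines in the response, 1 for the difference between days, 3 for day 9 against day 7 and 3 between lines without Dox. With a replicate block, 3 members were called for the difference between lines, 1 between days, 5 for day 9 against day 7 and 7 between lines without Dox; it changed no other count by over 1.5 times. Correlations of same-numbered arrays were 0.02, -0.05 and 0.11, so the numbers were not taken as pairs. Fitting only the arrays compared gave 3 for the difference between lines. Leaving out each array gave 5 to 9 at day 7, 7 to 9 at day 9, 1 to 4 for the difference between lines, 1 to 4 between days, 5 to 11 for day 9 against day 7 and 6 to 15 between lines without Dox. The parental count was 0 in each alternative run. Of the changes of 14 named members under the alternatives, 24 lost a call, 6 gained one and 0 of those called turned sign. Changes at day 9 that were not called turned sign without 1 array: Cdh2 (-0.03 without -Dox replicate 1 and -0.07 without +Dox replicate 2, against 0.01), Cdh6 (-0.05 without +Dox replicate 1, against 0.06) and Cdh11 (-0.02 without -Dox replicate 1, against 0.15).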
